A study of Mus musculus with 6 samples.

Results

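The genes described here are 10 components of colony-stimulating factor signalling in mouse macrophages: the ligand Csf1, the receptor chains Csf1r, Csf2ra, Csf2rb, Csf2rb2, Csf3r and Il3ra, and the signalling regulators Jak2, Stat5b and Cbl. They were taken by symbol from a table of 16836 genes, and all 10 were found. Macrophages were grown from bone marrow of Ube3a knockout mice (labelled UBE3A KO, here KO) and of wild-type littermates (WT), and mRNA was sequenced, with 3 libraries for each genotype. The Ube3a product is a ubiquitin ligase, and the comparison asks what its loss does to gene expression in these cells. The labels name the genotype, with the knockout allele, strain, age, culture growth factor and any treatment not given in the sources used here.

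Macrophages depend on M-CSF, the product of Csf1, which binds the receptor tyrosine kinase CSF1R and drives their survival, growth and maturation. GM-CSF and IL-3 act through a ligand-specific alpha chain (CSF2RA or IL3RA) paired with a shared beta chain (CSF2RB). Mice have an additional beta chain, CSF2RB2, which serves IL-3 alone. G-CSF acts on CSF3R, best known from neutrophils. The beta chains carry the kinase JAK2, which activates STAT5 proteins, and the ubiquitin ligase CBL marks activated CSF1R for uptake and breakdown.

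Levels are CPM, read counts scaled by the library sizes the authors used, and the values of a genotype are always listed for replicates 1, 2 and 3 in that order. Libraries held 25454862 to 35517269 reads, and with the library sizes the authors used a single read stood for 0.0277 to 0.0400 CPM. The test took the 12118 genes with 1 CPM or more in 3 or more libraries, all 10 genes among them. Ube3a stood at 69.7, 61.2 and 77.0 CPM in KO and at 207.1, 193.7 and 177.6 CPM in WT. It fell by 1.47 on the log2 scale (limma with Benjamini-Hochberg adjustment, adjusted p = 0.00444). Replicate 2 stood apart in both genotypes: Xist, the RNA of the inactive X chromosome, was down to 28 reads (KO) and 14 reads (WT) there, while the other libraries had 30161 to 42232. The labels do not tie libraries to animals or cultures, so the p-values rest on a spread between libraries that may be technical. Of the 11 macrophage markers, all were tested, with a summed level of 14428 to 17662 CPM in KO and 14821 to 17074 CPM in WT. Lyz2 alone made up 8859 to 11216 CPM of it in KO and 10215.5 to 10631 CPM in WT. The sum thus says little of the lower markers. Mrc1 stood at 531, 897 and 800 CPM in KO and at 277, 738 and 404 CPM in WT. Itgam ran from 193 to 218 CPM over the 6 libraries.

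Sequences are shown for 4 receptor genes, Csf2ra, Csf2rb2, Csf3r and Il3ra, picked because their levels in these same libraries tended to move together. They are the bases before the RefSeq start site on GRCm38.p6, 5′ to 3′ on the strand of the gene. Capitals mark matches, on either strand, to GAGGAA (core of the site of PU.1, the main macrophage transcription factor), TTGCNNAA (C/EBP) or TTCNNNGAA (STAT).
Csf2ra (chr19:61228419-61228618, minus strand, 200 bases before the start): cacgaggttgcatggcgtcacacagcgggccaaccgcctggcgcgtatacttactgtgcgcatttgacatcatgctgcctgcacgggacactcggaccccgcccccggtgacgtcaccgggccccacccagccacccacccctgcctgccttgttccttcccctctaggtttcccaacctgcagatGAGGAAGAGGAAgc
Csf2rb2 (chr15:78305722-78305921, minus strand, 200 bases before the start): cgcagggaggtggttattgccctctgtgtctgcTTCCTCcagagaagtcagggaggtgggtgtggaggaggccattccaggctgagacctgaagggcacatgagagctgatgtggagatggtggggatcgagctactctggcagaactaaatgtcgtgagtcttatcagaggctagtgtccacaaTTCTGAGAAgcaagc
Csf3r (chr4:126024561-126024590, plus strand, 30 bases around the match): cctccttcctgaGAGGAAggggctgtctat
Il3ra (chr14:14346350-14346379, plus strand, 30 bases around the match): atctcaggaagTTGCTCAAtctcgggacca

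In Csf2ra the PU.1 core occurs as a pair of adjoining copies, which begin 14 and 8 bases before the start. Csf3r has 1 copy, 86 bases before the start, and Csf2rb2 has 1 on the opposite strand, 167 bases before it, with a STAT match at 15 bases. Il3ra has a C/EBP match at 134 bases and no match to GAGGAA in its window. GENCODE places the gene start upstream of the RefSeq start, by 109 bases for Csf3r, 220 for Il3ra and 11 for Csf2ra. The Csf3r and Il3ra matches, and part of the Csf2ra pair, thus lie inside the gene as GENCODE draws it. Over windows of 250 bases, the PU.1 core was found in 4 of the 9 promoters listed for 8 of the 10 genes, the fourth being that of Cbl, and in 23.3% of all 32851 promoters. The C/EBP and STAT matches occur in 9.56% and 7.02% of all promoters. The interferon response element, searched as a pair of GAAA copies with NN between them, occurs in 2.98% of promoters and in none of the 9. These matches describe letters and not factor binding, and the windows of Csf1r and Csf2rb were not analysed here.

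None of the 10 genes passed the threshold between genotypes (limma with Benjamini-Hochberg adjustment over all tested genes, adjusted p from 0.866 to 0.978). Over all tested genes, 0.0165% passed, which is 2 genes. One member, Il3ra, had an unadjusted p under 0.05, against 4.13% of all tested genes, of which those higher in KO made up 1.68%. With limma-voom on the same reads, none of the 10 passed and 1 had an unadjusted p under 0.05. Without replicate 2 of both genotypes, none of the 10 passed against 0.193% of all tested genes, and 4 (Csf1, Csf2rb, Csf3r and Il3ra) had an unadjusted limma p under 0.05 against 11.3% of all. In CPM, the genotypes overlapped for each of the 10 genes. Over all tested genes 9.95% had no overlap, a share too small to set 10 genes apart. Log2 fold changes were positive for 5 genes and negative for 5, with a median of 0.00081, beside a median of 0.0015 and 50.4% positive over all tested genes. For 6 genes (Csf1r, Csf2rb, Csf2rb2, Cbl, Jak2 and Stat5b) the 95% interval stayed inside 1.5-fold in either direction.

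**Figure D1:**
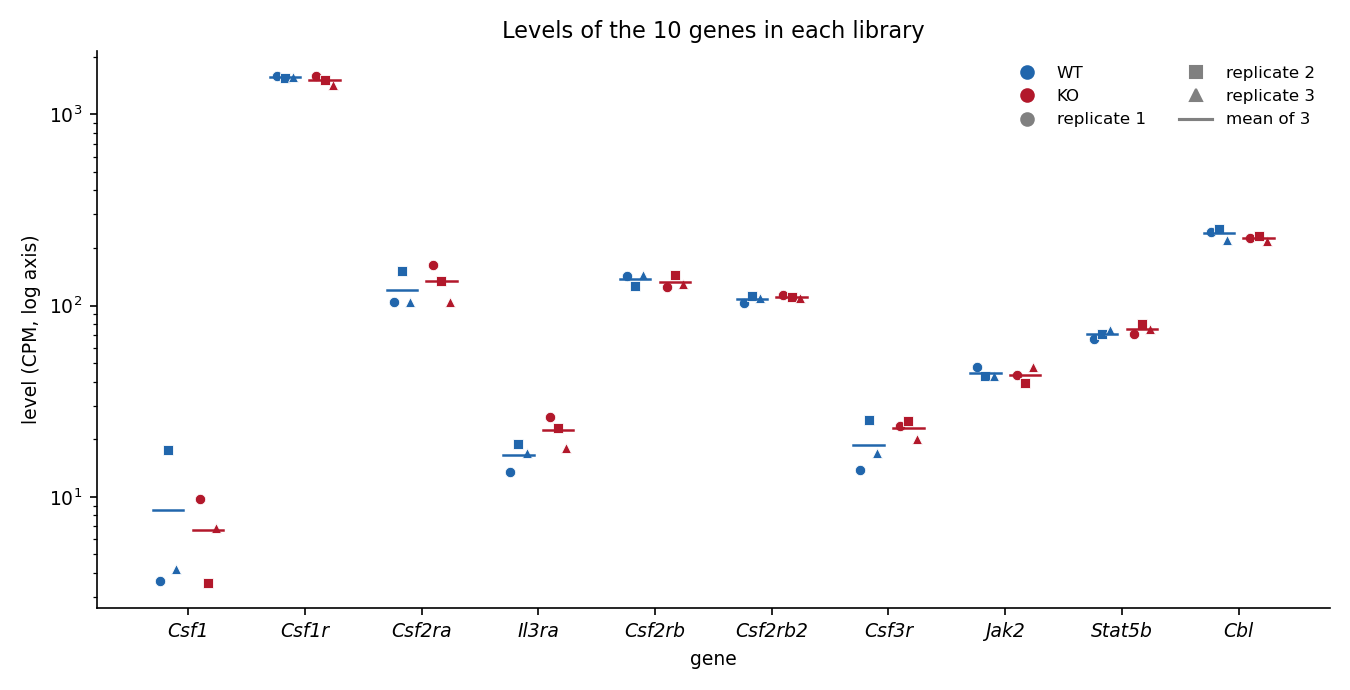
Level of each gene (CPM, log axis) in the 3 WT (blue) and 3 KO (red) libraries, with the marker giving the replicate and the bar the mean of 3. The genotypes overlap for all 10 genes, and the libraries of a genotype lie farthest apart for Csf1.

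Csf1r, the receptor for M-CSF, was by far the most abundant of the 10. It stood at 1584, 1513 and 1423.5 CPM in KO and at 1577, 1554 and 1566 CPM in WT. KO replicate 3 was the lowest library and KO replicate 1 the highest, so the KO values enclosed those of WT. The means were 1507 ± 80.5 CPM in KO and 1566 ± 11.9 CPM in WT (SD, n = 3 each). The log2 fold change was −0.057 (95% interval −0.24 to 0.13; limma adjusted p = 0.902), which bounds the KO level to between 0.846 and 1.09 times that of WT. By mean CPM, Csf1r was number 43 among the 12118 tested genes. Csf1r (ENSMUSG00000024621, chromosome 18: 61100598 to 61132149, plus strand, GRCm38) shares 873 bp of exon with Hmgxb3 on the opposite strand. How the counting treated strand is not stated, and Hmgxb3 had 1088 to 1492 reads per library against 39614 to 56477 for Csf1r.

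Csf1 (ENSMUSG00000014599, chromosome 3: 107741048 to 107760469, minus strand), the ligand of that receptor, varied most among libraries of the same genotype. The KO libraries had 9.76, 3.57 and 6.88 CPM, and the WT libraries 3.65, 17.7 and 4.19 CPM, from 111 to 499 reads. WT replicate 2 was the highest of the 6 libraries and KO replicate 2 the lowest, 4.95-fold apart. The means were 6.73 ± 3.10 CPM in KO and 8.50 ± 7.93 CPM in WT (SD, n = 3 each), and the log2 fold change was −0.072 (95% interval −1.30 to 1.15; limma adjusted p = 0.978). On the CPM + 1 scale that interval spans 0.407 to 2.22 times the WT level, so it takes in changes of that size in either direction. The SD within genotype, 0.90 on the log2(CPM + 1) scale, exceeded that of 99.7% of tested genes, whose median was 0.12.

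The direction for Csf1 rested on replicate 2. Without WT replicate 2 the log2 fold change was 0.57 and without KO replicate 2 it was 0.26. Without both, where KO had 9.76 and 6.88 CPM against 3.65 and 4.19 CPM in WT, it was 0.91 (limma adjusted p = 0.0690). Of 7 markers of stromal cells, a known source of M-CSF, 4 were in the table, with a sum of 1.67 to 2.25 CPM in KO and 1.66 to 1.94 CPM in WT that was mostly Pdgfrb in 5 of the 6 libraries. The other markers, Col1a1 (0.495 CPM), Col1a2 (0.354 CPM) and Dcn (0.318 CPM), were highest in WT replicate 2, the library with most Csf1, on 9 to 14 reads each, whereas Pdgfrb was lowest there (0.707 CPM). The part of stromal RNA in the Csf1 level was not tested. The osteoclast list, of which 4 of 7 genes were in the table, ran from 23.9 to 42.3 CPM in KO and from 16.5 to 63.5 CPM in WT. It was highest in WT replicate 2 and KO replicate 1, the libraries with most Csf1, and its part in the result was not tested. Mmp9 alone made up 46.9 of the 63.5 CPM in WT replicate 2 and 29.8 of the 42.3 CPM in KO replicate 1, while Ctsk was highest in KO replicate 3 and Acp5 in KO replicate 1. Stat2, a transcription factor of the interferon response, had the same order of libraries as Csf1 within each genotype. It stood at 181.8, 96.1 and 142.6 CPM in KO and 87.2, 162.9 and 104.1 CPM in WT. This gene was picked after the values were seen.

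**Figure D2:**
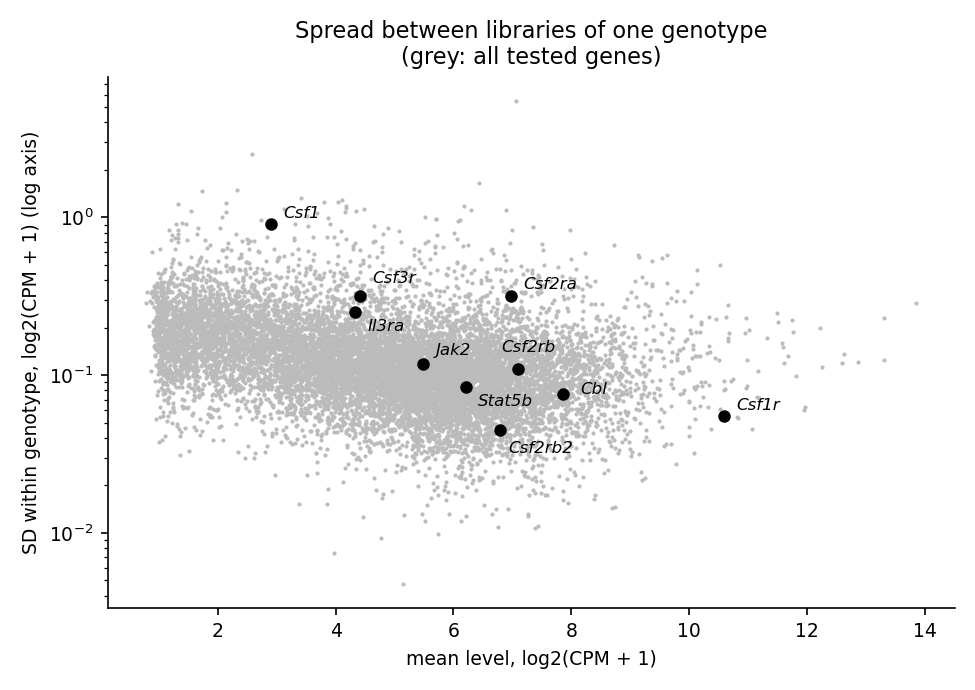
SD between libraries of the same genotype (log axis) against mean level, both on the log2(CPM + 1) scale, for all 12118 tested genes (grey) and the 10 genes (black, named). Csf1 lies near the top of the cloud at 0.90, and Csf2rb2 and Csf1r have the lowest SD of the 10 genes, at 0.045 and 0.055.

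The alpha chains for GM-CSF and IL-3 had higher means in KO, with wide spread. Csf2ra (ENSMUSG00000059326, chromosome 19: 61223957 to 61228429, minus strand) stood at 164, 135 and 104 CPM in KO and at 104, 152 and 104 CPM in WT. KO replicate 1 and WT replicate 2 were the highest, and 3 libraries from both genotypes shared the lowest level. The means were 134 ± 29.8 and 120.2 ± 27.7 CPM in KO and WT (SD, n = 3 each), with a log2 fold change of 0.16 (95% interval −0.29 to 0.60; limma adjusted p = 0.892). Leaving out KO replicate 1 brought it to 0.0024, and leaving out WT replicate 2 raised it to 0.34.

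Il3ra, the IL-3-binding chain, came closest to a difference between genotypes. It stood at 26.1, 23.0 and 17.9 CPM in KO and at 13.4, 18.9 and 17.1 CPM in WT. KO replicates 1 and 2 lay above all WT libraries, and KO replicate 3 lay below WT replicate 2. The means were 22.4 ± 4.14 and 16.5 ± 2.79 CPM (SD, n = 3 each), a ratio of 1.36, and the log2 fold change was 0.42 ± 0.16 (SE; 95% interval 0.045 to 0.79). The unadjusted limma p was 0.0322 and the adjusted p 0.866, and the authors' deposited table gives p = 0.0283. With 1 library left out, the log2 fold change ran from 0.29 to 0.56, and the unadjusted p stayed under 0.05 only without KO replicate 3 or WT replicate 2. Il3ra (ENSMUSG00000068758, chromosome 14: 14346275 to 14356011, plus strand) shares 46 bp of exon with Gm48860 on the opposite strand, a gene not analysed here. Mast cells and basophils also carry this chain: of their list with progenitors, Kit, Cd34, Gata2 and Hdc were in the table. Of these only Cd34 reached 1 CPM in at least 3 libraries, and Kit stood at 0.129 to 0.370 CPM over the 6 libraries. The sum of these markers, nearly all of it Cd34, was 24.7 to 34.7 CPM in KO and 29.3 to 77.8 CPM in WT, and its part in the Il3ra level was not tested.

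The beta chains were steadier and differed less between genotypes. Csf2rb, the shared chain, stood at 124, 145 and 130.2 CPM in KO and at 143, 126 and 144 CPM in WT (log2 fold change −0.050; 95% interval −0.24 to 0.14; limma adjusted p = 0.914). Csf2rb2, the IL-3 chain, stood at 113, 111 and 109.9 CPM in KO and at 104, 112 and 109.8 CPM in WT (0.037; 95% interval −0.096 to 0.17; limma adjusted p = 0.911). Only WT replicate 1 fell short of the other libraries for Csf2rb2, whose SD within genotype was above that of 5.54% of tested genes.

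These genes lie near each other on chromosome 15, Csf2rb2 (ENSMUSG00000071714) at 78282507 to 78305721 on the minus strand and Csf2rb (ENSMUSG00000071713) at 78325752 to 78353847 on the plus strand. Their coding sequences (2688 bp in Csf2rb and 2634 bp in Csf2rb2, GENCODE M21) were 95.2% identical over 2628 aligned bases, with a longest identical run of 242 bp. Of all 100 bp windows of the Csf2rb coding sequence, 11.0% also occur in Csf2rb2, and of all 50 bp windows 26.0%. Reads of such lengths from these parts cannot be assigned, so both levels are uncertain. The 90 bp where the coding sequences differ most, with 16 differing bases in capitals, and an identical stretch of equal length show what separates the pair.
Csf2rb, coding bases 308 to 397: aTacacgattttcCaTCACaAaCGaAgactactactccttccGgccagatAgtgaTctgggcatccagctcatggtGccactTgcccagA
Csf2rb2, coding bases 311 to 400: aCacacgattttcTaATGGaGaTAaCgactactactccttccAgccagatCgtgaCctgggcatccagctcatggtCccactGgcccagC
Both, from coding base 662 in Csf2rb and 665 in Csf2rb2: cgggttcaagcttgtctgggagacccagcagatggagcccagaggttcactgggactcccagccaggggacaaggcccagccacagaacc

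Csf2rb took 52.3%, 56.7% and 54.2% of the pair's reads in KO and 58.1%, 53.0% and 56.7% in WT. The lowest shares were in KO replicate 1 and WT replicate 2, with exact (Clopper-Pearson) 95% intervals, which cover counting error only, of 51.1% to 53.6% and 51.8% to 54.2%. The highest, in WT replicate 1, had an interval of 57.0% to 59.2%, clear of both. The genotypes overlapped, at 54.4% ± 2.18 in KO and 55.9% ± 2.64 in WT (SD, n = 3 each). The summed level of the pair was 244.5 ± 9.60 CPM in KO and 246.4 ± 7.73 CPM in WT.

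Csf3r (ENSMUSG00000028859, chromosome 4: 126024550 to 126044440, plus strand), the G-CSF receptor, was detected in every library. It stood at 23.4, 24.9 and 20.1 CPM in KO and at 13.8, 25.3 and 17.0 CPM in WT. WT replicate 2 was the highest library and WT replicates 1 and 3 the lowest, with the KO libraries between them. The means were 22.8 ± 2.48 and 18.7 ± 5.96 CPM (SD, n = 3 each), with a log2 fold change of 0.31 (95% interval −0.14 to 0.76; limma adjusted p = 0.866). Without WT replicate 2 it was 0.54 (limma adjusted p = 0.259), without WT replicate 1 it was 0.12, and without replicate 2 of both genotypes 0.47 (limma adjusted p = 0.164). Neutrophil transcripts went the other way in WT: the 9 of 11 markers in the table summed to 32.7, 10.5 and 28.3 CPM in WT, and to 8.28 to 21.3 CPM in KO. Mpo, Elane and Camp had 0 reads in WT replicate 2, the library with most Csf3r. The part of neutrophil RNA in the Csf3r level was not tested. In bulk RNA, fewer cells of a type and less RNA per cell cannot be told apart.

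**Figure D3:**
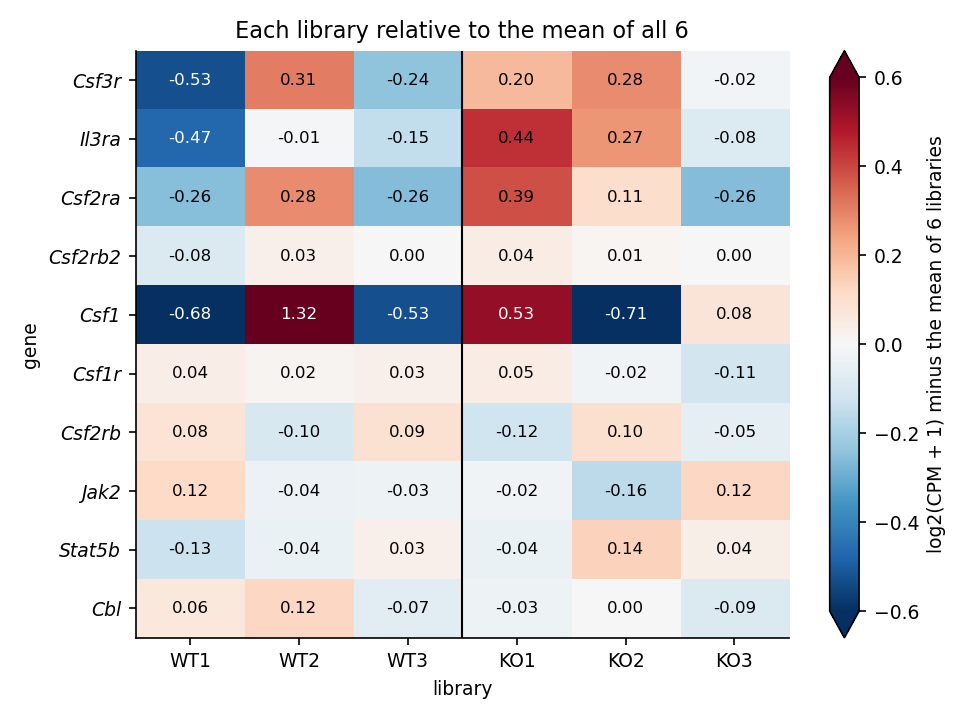
Log2(CPM + 1) of each gene in each library minus the mean of the 6 libraries, with values printed and colours ending at 0.6 in either direction. Csf3r, Il3ra, Csf2ra and Csf2rb2 are all lowest or near lowest in WT replicate 1, and Csf1 reaches 1.32 in WT replicate 2.

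Csf3r, Il3ra, Csf2ra and Csf2rb2 took a similar course over the 6 libraries. Pearson r was 0.72 to 0.88 for their 6 pairings, the highest of all 45 pairs among the 10 genes. These values describe 6 libraries that share their depth and composition, and carry no test. Their sizes differed: relative to the mean of the 6 libraries, WT replicate 1 lay 0.53 lower on the log2 scale for Csf3r, 0.47 lower for Il3ra and 0.085 lower for Csf2rb2. Among 8534 named genes of at least 10 CPM, those most like Csf3r were Limd2, Mbd3 and Gng5 (r of 0.99 each), but 438 genes had r over 0.9. Among those most like Csf1r were Ganab, a glucosidase of the endoplasmic reticulum, and Slc7a1, an amino acid transporter (r of 0.97 and 0.96), with 25 genes over 0.9. For Csf1 they were Ghitm, Ube2b and Cd86 (r of 0.99 each), with 236 genes over 0.9, a search added after the values were seen.

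The kinase, the transcription factor and the ubiquitin ligase differed little between genotypes. Jak2 (ENSMUSG00000024789) is at 29251828 to 29313080 on chromosome 19, Stat5b (ENSMUSG00000020919) at 100780731 to 100850724 on chromosome 11 and Cbl (ENSMUSG00000034342) at 44142976 to 44234049 on chromosome 9. Jak2 stood at 43.2, 39.2 and 47.9 CPM in KO and at 47.7, 42.7 and 42.9 CPM in WT (log2 fold change −0.036; 95% interval −0.24 to 0.17; limma adjusted p = 0.938). Both the highest and the lowest Jak2 value were in KO. Stat5b stood at 71.1, 80.5 and 75.0 CPM in KO and at 66.7, 71.1 and 74.6 CPM in WT (0.091; 95% interval −0.075 to 0.26; limma adjusted p = 0.866). Its coding sequence was 90.8% identical to that of Stat5a over 2290 aligned bases, with 11.7% of 100 bp windows and 26.3% of 50 bp windows shared. Reads of such lengths from the shared parts could thus not be told from those of Stat5a. Cbl, the ligase that acts on CSF1R, stood at 227, 232 and 218 CPM in KO and at 242, 253 and 221 CPM in WT (−0.079; 95% interval −0.24 to 0.079; limma adjusted p = 0.872). WT replicates 1 and 2 lay above all KO libraries for Cbl, and WT replicate 3 lay below 2 of the 3 KO libraries.

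**Figure D4:**
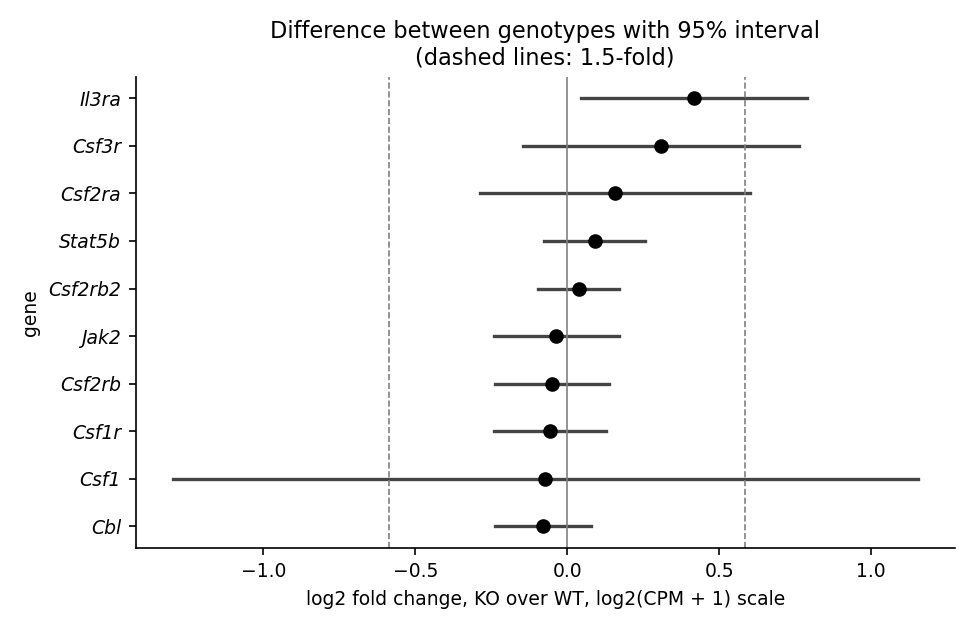
Log2 fold change (KO over WT, log2(CPM + 1) scale) with its 95% interval from limma, for 3 against 3 libraries; dashed lines mark 1.5-fold. Il3ra is the only gene whose interval, 0.045 to 0.79, leaves out no change, and Csf1 has the widest interval.

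Per kilobase of exon the order of the genes was the same in every library except between some neighbours. Csf1r came first at 246.5 to 274.4 CPM per kb, followed by Csf2ra at 36.2 to 57.1 and Csf2rb2 at 21.8 to 23.9. Cbl (17.7 to 20.5 CPM per kb) and Csf2rb (17.1 to 19.9) could not be ranked, since Cbl was the higher in only 2 of 6 libraries. Csf2rb2 stood above Csf2rb here although Csf2rb had more reads, over exon lengths of 4740 bp for Csf2rb2 and 7277 bp for Csf2rb. The levels of this pair are uncertain, as shared reads cannot be assigned. Stat5b (12.1 to 14.5 CPM per kb) and Jak2 (7.79 to 9.52) came next, then Il3ra (4.52 to 8.80) and Csf3r (3.81 to 7.02), with Jak2 above Il3ra and Il3ra above Csf3r in 5 of 6 libraries. Csf1 was last at 0.675 to 3.34 CPM per kb. The receptor for M-CSF was thus present at a far higher level per kilobase than the ligand in every library.

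Genes around these receptors did not pass the threshold either. Of 89 further genes in 8 lists, 73 were tested and 0 passed (limma with Benjamini-Hochberg adjustment, smallest adjusted p = 0.866). At an unadjusted p under 0.05 there were 3, by limma and by limma-voom, where 4.13% of all tested genes had such a p. The count depended most on WT replicate 2. Without replicate 2 of both genotypes, 20 of the 73 had an unadjusted limma p under 0.05 (11.3% of all tested genes) and 1, Fgr, passed the threshold. Without WT replicate 2 alone there were 16 (10.6% of all), and with the Xist level as a term in the fit 10 (6.07% of all), and none passed in either. Without KO replicate 2 alone there were 2, where 254 of 12016 tested genes had such a p, and none passed. Of the other ligands and class III receptor kinases, only Kit, Flt3 and Pdgfrb were in the table and only Pdgfrb was tested, at 1.68 ± 0.258 CPM in KO and 1.30 ± 0.542 in WT.

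Downstream of CSF1R, all 20 genes were tested and none passed, with 12 log2 fold changes positive and a median of 0.027. Fgr, a Src-family kinase of myeloid cells, stood at 13.4, 22.2 and 15.5 CPM in KO and at 31.8, 19.4 and 28.7 CPM in WT. The difference on the log2 scale was −0.62 (limma adjusted p = 0.866), and without replicate 2 of both genotypes it was −1.02 and passed the threshold (limma adjusted p = 0.0136). The adaptor Shc1 had a log2 fold change of 0.11. Of 18 negative regulators 15 were tested and none passed (median 0.034), with the phosphatase Ptpn1 at 0.17 and Adam17, the protease that sheds CSF1R from the surface, at −0.13. The 9 other JAK and STAT genes all were tested, and none passed (median 0.14), with Stat3 at 0.16 and Tyk2 at 0.14.

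Genes known to respond to these cytokines gave the same picture. Of 11 STAT5 targets 9 were tested and none passed (median −0.018), with the cytokine Osm at −0.20 and Myc at −0.13. The classical STAT5 targets Cish and Socs2 were under the filter, at 0.318 to 0.693 and 0.0277 to 0.160 CPM, and were named after their values were seen. Of 10 growth genes induced by M-CSF, 9 were tested and none passed, with 7 log2 fold changes negative and a median of −0.13. Odc1, which starts polyamine synthesis, had −0.28 (95% interval −0.48 to −0.073) and Fos −0.21. Of 8 genes induced by GM-CSF, 5 were tested and none passed (median 0.015), with Pparg at −0.053 and Irf4 at 0.27. The 8 transcription factors of the Csf1r locus were all tested and none passed (median 0.0085). Spi1, which encodes PU.1, stood at 314.1, 320.8 and 263.4 CPM in KO and 224.4, 274.8 and 271.4 CPM in WT (log2 fold change 0.22; 95% interval −0.025 to 0.47). Mitf had a log2 fold change of −0.18 (95% interval −0.33 to −0.027).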

How the data were processed

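The authors deposited 1 table. Its expression columns are CPM by their headers, and log2 CPM by their range. Beside them stand the log2 fold changes and p-values of the authors. Per the submitters' processing notes, FastQC 0.11.15, Trimmomatic 0.36, Cufflinks, HISAT2 2.1.0 and HTSeq 0.11.0 took part, with their roles, the build and the strand setting not given in the sources used here. Further, the decimal mark of values of size 1 or more had been lost. It was restored from the fact that each value must stand for whole reads, which held within 1e-06 for 100% of values; for 528 to 561 values per library this chose between 2 readings. Limma-voom over all genes gave the authors' p-values within a relative gap of 4.97e-10 (16830 readable p-values).

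CPM were computed from the recovered reads. Genes reaching 1 CPM in 3 or more libraries were fitted with limma 3.58.1 (R 4.3.3, trended eBayes) on log2(CPM + 1), where changes of low genes come out too small, with genotype as the only term. The threshold was a Benjamini-Hochberg adjusted p under 0.05 over all tested genes, two-sided. Tests on raw counts, planned in case the table held them, were not used. The fit was tested on simulated data. The genes and lists were chosen with earlier results of these data known. Named beside the 10 genes are the 2 members of each list with the smallest p and the 3 genes most correlated with Csf1r and with Csf3r. Some results under this rule are not reported here. Positions and exon lengths are from GENCODE M21 (GRCm38), promoters from RefSeq (GRCm38.p6).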

Additional observations from a re-analysis of the deposited data

How the results depend on the processing

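None of the 10 genes passed the threshold in any of the 18 alternative fits. Of their 180 recomputed log2 fold changes, 174 kept their direction. That count says little, since the filters, eBayes without trend, the replicate block and the Xist term leave these log2 fold changes unaltered. All 6 reversals, of Csf1 and Jak2, came in fits that left out libraries. The count over all tested genes, 2 as reported, was 1 with no filter on low values, 1 with at least 5 CPM, 1 with limma-voom, 1 with eBayes without trend, 23 without the 2 libraries nearly free of Xist, and 1 to 8 with 1 library left out. Without these 2 libraries, the log2 fold change of Csf1 turned to 0.91, that of Jak2 to 0.0077 and that of Pparg to 0.12. With 1 library left out it ran from −0.43 to 0.57 for Csf1, from −0.11 to 0.035 for Jak2 and from −0.15 to 0.11 for Pparg; the cause was not tested.

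The labels do not say that replicate numbers pair libraries. Both replicate 2 libraries were nearly free of Xist, but the deviations of same-numbered libraries correlated at −0.216, −0.134 and 0.14, and no library correlated best with its own number. With the replicate block, 2 genes passed over all genes and none of the 10. With 3 libraries per genotype, the intervals of Csf1, Csf2ra, Csf3r and Il3ra allow changes of over 1.5-fold.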
